A study of Drosophila melanogaster with 15 samples.

Results

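The proteasome subunit genes of Drosophila melanogaster were followed in whole adult males with and without Dsup, the DNA-shielding nucleosome-binding protein of a tardigrade, before and after ionizing radiation. A gene was taken when an array probe set carried exactly 1 symbol and that symbol began with Prosalpha, Prosbeta, Rpn plus a digit or Rpt plus a digit. This gave 40 genes of 11982 genes named on the array, each with 1 probe set. Of these, 26 were general subunits and 14 were testis copies, told apart by the ending of the symbol (T, T1, T2, R, R1 or R2). The study held 15 Affymetrix arrays, each of whole bodies of 25 flies, males 3 days old. The 4 groups were Dsup-expressing flies after 1000 Gy (lines 1 to 4, 4 arrays), control flies after 1000 Gy (3 arrays), untreated Dsup-expressing flies (the same lines 1 to 4, 4 arrays) and untreated control flies (4 arrays). The sources used here do not give the promoter that drives Dsup, the stock behind the controls or the time from irradiation to RNA isolation, so the transgene and any difference in genetic background cannot be told apart.

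The proteasome is the protease that degrades ubiquitin-tagged proteins. Its core is a barrel in which rings of alpha subunits form the gate and rings of beta subunits, inside, hold the cutting sites. Regulatory particles cap the barrel. Their base, with the Rpt ATPases, unfolds substrates, and their lid, with the deubiquitinase Rpn11, removes ubiquitin. Flies also carry duplicated subunit genes that are expressed in the male germ line, among them Prosalpha6T, which takes the place of Prosalpha6 in the sperm proteasome. Subunit genes of many animals rise together when proteasome activity is blocked, through transcription factors of the family of Cnc.

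The 26 general subunits comprised 6 of the alpha ring, 6 of the beta ring, 7 of the base and 7 of the lid. Prosbeta1, Rpn9, Rpn10, Rpt1, Rpt6 and Rpt6R had no probe set under the rule and were not analysed here. Prosalpha1 and its testis copy Prosalpha1R shared a probe set and were left out. That probe set changed by 0.03 in Dsup lines and by 0.11 in control flies after radiation on the log2 scale, and was not called. Rpn12R, Rpn6, Rpn13, Prosbeta5 and Prosbeta7 were read by probe sets of a type (_s_at) that can match transcripts of more than 1 gene. Values below are log2 probe set levels after quantile normalization of all arrays. They compare arrays for a given gene and not the levels of different genes. A change is the difference of 2 group means with its standard error (SE) from limma, fitted to all 15 arrays, and "called" means a Benjamini-Hochberg adjusted p under 0.05 over all 18769 probe sets.

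As deposited, the 4 groups sat at different levels, and the median of all probe sets changed by 0.47 with radiation in Dsup lines, by 0.23 in control flies, and by -0.61 and -0.39 between Dsup lines and controls, untreated and irradiated. After quantile normalization these medians were 0.01, -0.01, -0.01 and 0.01. Of the yolk protein genes, which mark females, Yp1 ran from 1.202 to 2.159 over all arrays, Yp2 from 1.94 to 2.43 and Yp3 from 4.18 to 5.30. Pairs of irradiated control arrays held identical deposited values for 36.0% to 40.9% of all probe sets, and 19 of the 40 proteasome genes had the same deposited value in at least a pair of those arrays, against 0 in each other group. The median SD of the general subunits was accordingly 0.0375 in irradiated controls, against 0.0993 in irradiated Dsup lines, 0.160 in untreated Dsup lines and 0.194 in untreated controls. The fit pools these spreads into a shared estimate for all comparisons. Its standard errors may therefore be too small, also for comparisons without irradiated controls, and by how much was not tested.

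After radiation, the alpha ring genes Prosalpha5 and Prosalpha7 rose in Dsup lines and in control flies, by between 0.35 and 0.57 on the log2 scale. The lid gene Rpn6 was called lower in both after quantile normalization, but not as deposited or with each array centred on its median. In control flies 5 further general subunits rose, of the alpha ring, the beta ring and the lid. No base subunit was called in either genotype after quantile normalization. With each array centred on its median, 1 of 7 was called higher in Dsup lines, against 12.3% of all probe sets. In control flies 3 of 7 were, against 20.7%. Over the 14 testis copies the median change after quantile normalization was 0.00 in Dsup lines, with 7 above 0, and -0.13 in control flies, with 1 above 0. Median-centred, 10 copies were above 0 in Dsup lines (median 0.05) and 5 in control flies (median -0.05). As deposited, 14 were above 0 in Dsup lines and 13 in control flies, where 93.4% and 75.0% of all probe sets were.

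In Dsup lines, 2 of the 26 general subunits rose and 1 fell, against 10.7% of all probe sets higher and 10.6% lower. Prosalpha5 had log2 levels of 8.71, 8.88, 8.96 and 8.83 in irradiated lines 1 to 4, against 8.50, 8.36, 8.65 and 8.29 in the same lines untreated. All irradiated arrays lay above all untreated ones, and the change was 0.40 ± 0.09 (SE; adjusted p = 0.00613). Prosalpha7 stood at 8.60, 8.76, 8.76 and 8.68 in irradiated lines, against 8.36, 8.17, 8.48 and 8.15 in untreated lines, again without overlap, for a change of 0.41 ± 0.08 (adjusted p = 0.00283). Both encode structural subunits of the alpha ring, which meets the regulatory particle. Rpn6, a lid subunit that helps clamp the lid to the core, had 9.17, 9.21, 9.29 and 9.18 in irradiated lines, against 9.42, 9.38, 9.70 and 9.45 in untreated lines. The groups did not overlap. Rpn6 fell by 0.28 (SE 0.08, adjusted p = 0.0221) after quantile normalization, but the call depended on the scaling. As deposited Rpn6 was higher by 0.31 (adjusted p = 0.00182), less than the median of all probe sets. With each array centred on its median it was at -0.11 (adjusted p = 0.349). Centred on the cytosolic ribosomal protein genes, it was at -0.27 and called lower.

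The other general subunits were not called in Dsup lines. Of all 26, 19 had a change above 0, the range was -0.28 to 0.42, and the median was 0.16, against 0.01 over all probe sets. The groups of arrays did not overlap for 2 subunits in the upward and 1 in the downward direction, against 10.7% of all probe sets either way. The median was 0.31 in the alpha ring, 0.20 in the beta ring, 0.04 in the base and 0.06 in the lid. Prosalpha4 had the largest change of all, 0.42 ± 0.16, but its untreated lines spread from 6.80 in line 4 to 7.60 in line 3 and it was not called (adjusted p = 0.0816). Prosbeta6, a beta ring subunit, was just outside the threshold at 0.25 ± 0.09 (adjusted p = 0.0529).

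In control flies, 7 of 26 general subunits rose, against 16.9% of all probe sets, and 1 fell, against 17.1%. Prosalpha5 had 8.96, 8.91 and 8.97 in irradiated controls 1 to 3, against 8.53, 8.22, 8.41 and 8.37 in untreated controls 1 to 4. Its change of 0.57 ± 0.10 (adjusted p = 0.000464), a 1.48-fold rise, was the largest among the proteasome genes. Prosalpha4 followed with 7.64, 7.57 and 7.59 in irradiated controls, against 7.31, 6.74, 7.31 and 6.80 in untreated controls (0.56 ± 0.18, adjusted p = 0.0243). The irradiated arrays of both genes were tightly grouped above a wide spread of untreated ones. This was shared by all probe sets, whose median SD was 0.0480 in irradiated and 0.154 in untreated controls. As deposited, Prosalpha4 had the same value, 8.13, in irradiated controls 1 and 3. Prosalpha6 had 8.41, 8.43 and 8.48 in irradiated controls, against 8.30, 7.70, 8.06 and 7.995 in untreated controls (0.43 ± 0.13, adjusted p = 0.0220). Prosalpha7 had 8.72, 8.65 and 8.70 in irradiated controls, against 8.43, 8.24, 8.38 and 8.30 in untreated controls (0.35 ± 0.09, adjusted p = 0.00656). It was not called with the level difference between 3' and 5' control probe sets as a covariate (adjusted p = 0.117). Thus 4 of 6 measured alpha ring genes rose, and Prosalpha2 and Prosalpha3 were not called (0.06 and 0.17).

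Of the beta ring, Prosbeta4 and Prosbeta6 rose in control flies. Prosbeta4 had 8.81, 8.74 and 8.72 in irradiated controls, against 8.66, 8.10, 8.49 and 8.32 in untreated controls (0.36 ± 0.13, adjusted p = 0.0441). Prosbeta6 had 8.83, 8.81 and 8.91 in irradiated controls, against 8.74, 8.49, 8.60 and 8.40 in untreated controls (0.29 ± 0.09, adjusted p = 0.0291). These subunits carry no cutting site. The measured subunits that do, Prosbeta2 with the trypsin-like site and Prosbeta5 with the chymotrypsin-like site, changed by 0.20 and 0.25 and were not called. In the lid, Rpn12 had 7.77, 7.72 and 7.71 in irradiated controls, against 7.63, 7.07, 7.50 and 7.39 in untreated controls (0.34 ± 0.13, adjusted p = 0.0492). As deposited, all irradiated controls held the same Rpn12 value, 8.25, so their spread here comes from the quantile step alone. Rpn6 had 9.20, 9.25 and 9.14 in irradiated controls, against 9.59, 9.40, 9.56 and 9.60 in untreated controls. It fell by 0.34 (SE 0.09, adjusted p = 0.00641) after quantile normalization only. As deposited Rpn6 was higher by 0.17, and median-centred it was at -0.02. Centred on the cytosolic ribosomal protein genes, it was at -0.14. None of these was called.

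Over the 26 general subunits the median change in control flies was 0.16, with 21 above 0 and a range of -0.34 to 0.57. The groups of arrays did not overlap for 8 subunits upward, the 7 named and the ATPase gene Rpt2, against 23.6% of all probe sets, and for 1 downward, against 24.3%. The median was 0.39 in the alpha ring, 0.23 in the beta ring, 0.07 in the base and 0.04 in the lid. Beyond Rpt2 at 0.26 ± 0.10 (adjusted p = 0.0575), the base genes, which include the ubiquitin receptor gene Rpn13 and the scaffold genes Rpn1 and Rpn2, lay between -0.10 and 0.20. Sem1, a small lid subunit outside the naming rule, changed by 0.32 in Dsup lines (adjusted p = 0.0821) and by 0.32 in control flies (adjusted p = 0.0746).

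**Figure D1:**
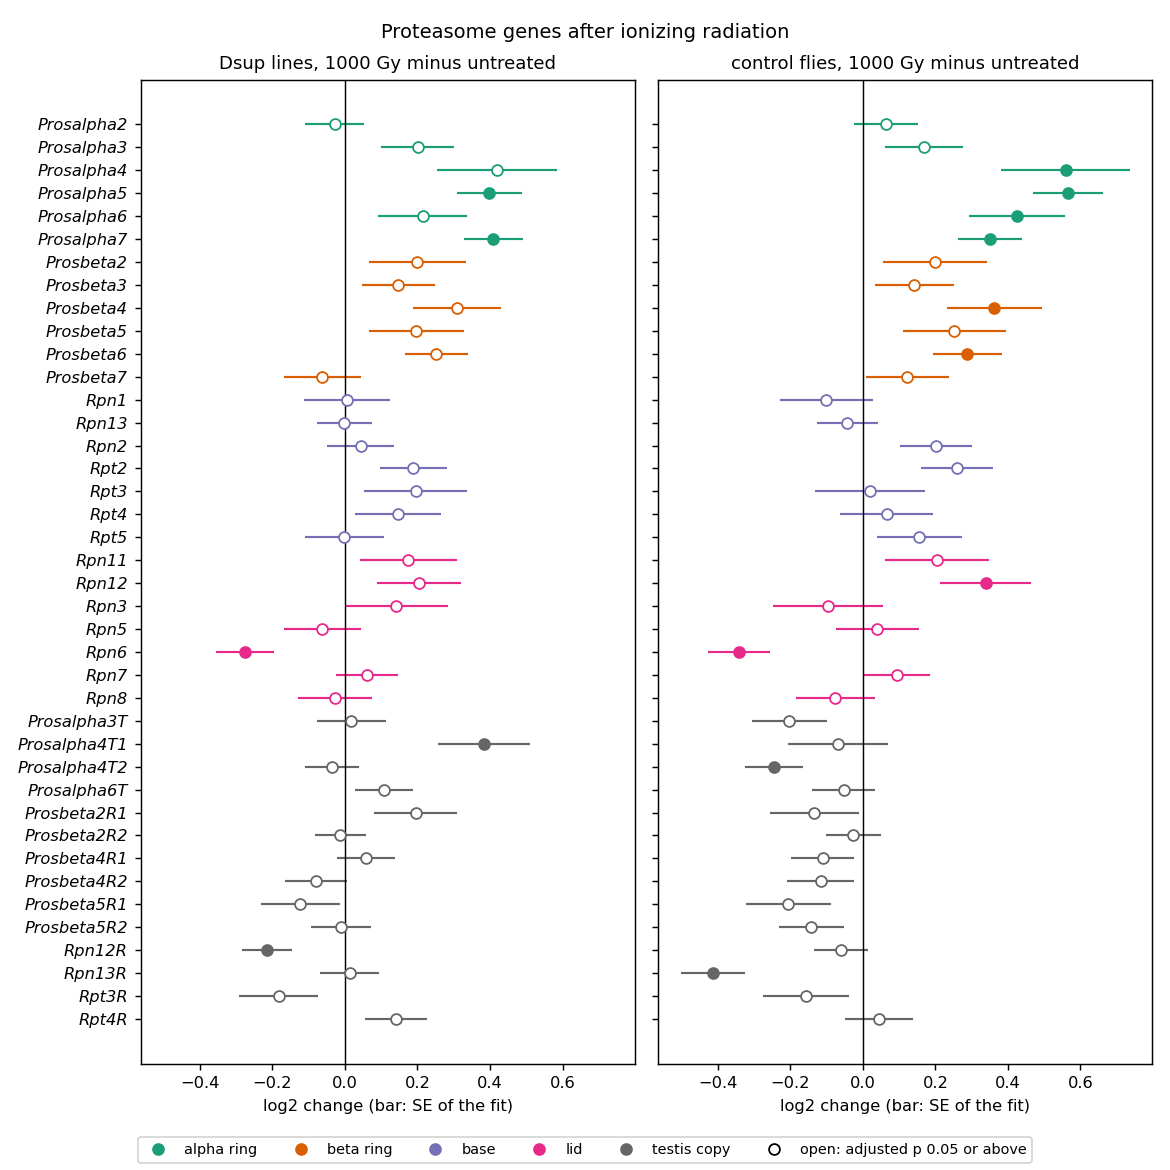
Log2 change with 1000 Gy of each proteasome gene in Dsup lines and in control flies, with the SE of the fit. Points are coloured by place in the complex, and filled where the adjusted p is under 0.05. After quantile normalization, alpha ring genes reach 0.42 in Dsup lines and 0.57 in control flies, and 13 of 14 testis copies lie below 0 in control flies. In the deposited values, 13 of 14 copies lie above 0 in control flies.

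How many general subunits were called depended on the scaling. As deposited, 26 of 26 were higher after radiation in Dsup lines, where 76% of all probe sets were, and 23 in control flies, where 41.9% were. With each array centred on its median, 8 were higher in Dsup lines (12.3% of all probe sets) and 18 in control flies (20.7%). Centred on the cytosolic ribosomal protein genes, 2 were higher in Dsup lines (4.03% of all probe sets) and 13 in control flies (12.7%). The median change of the general subunits, 0.16 in both genotypes, stood against 0.01 in Dsup lines and -0.04 in control flies among 1941 probe sets with a mean level in the same range, 7.37 to 9.43. Median-centred, the general subunits had medians of 0.30 in Dsup lines and 0.42 in control flies, against 0.13 and 0.17 for the probe sets of that range.

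The general subunits of single arrays moved together. Untreated control 2 was the lowest of its group in 25 of the 26 general subunits, where it was the lowest in 28.7% of all probe sets, and lay at a median of -0.26 from the group means. Its testis copies were at 0.01 and were lowest in 4 of 14. Its ribosomal protein genes were at -0.02. Untreated Dsup line 3 was the highest of its group in 26 of 26 general subunits, against 27.7% of all probe sets, at a median of 0.22. Irradiated Dsup line 1 was the lowest in 24 of 26, against 30.0% of all probe sets, at -0.13. Without untreated control 2 the median SD of the general subunits in that group was 0.0972, against 0.194 with it.

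**Figure D2:**
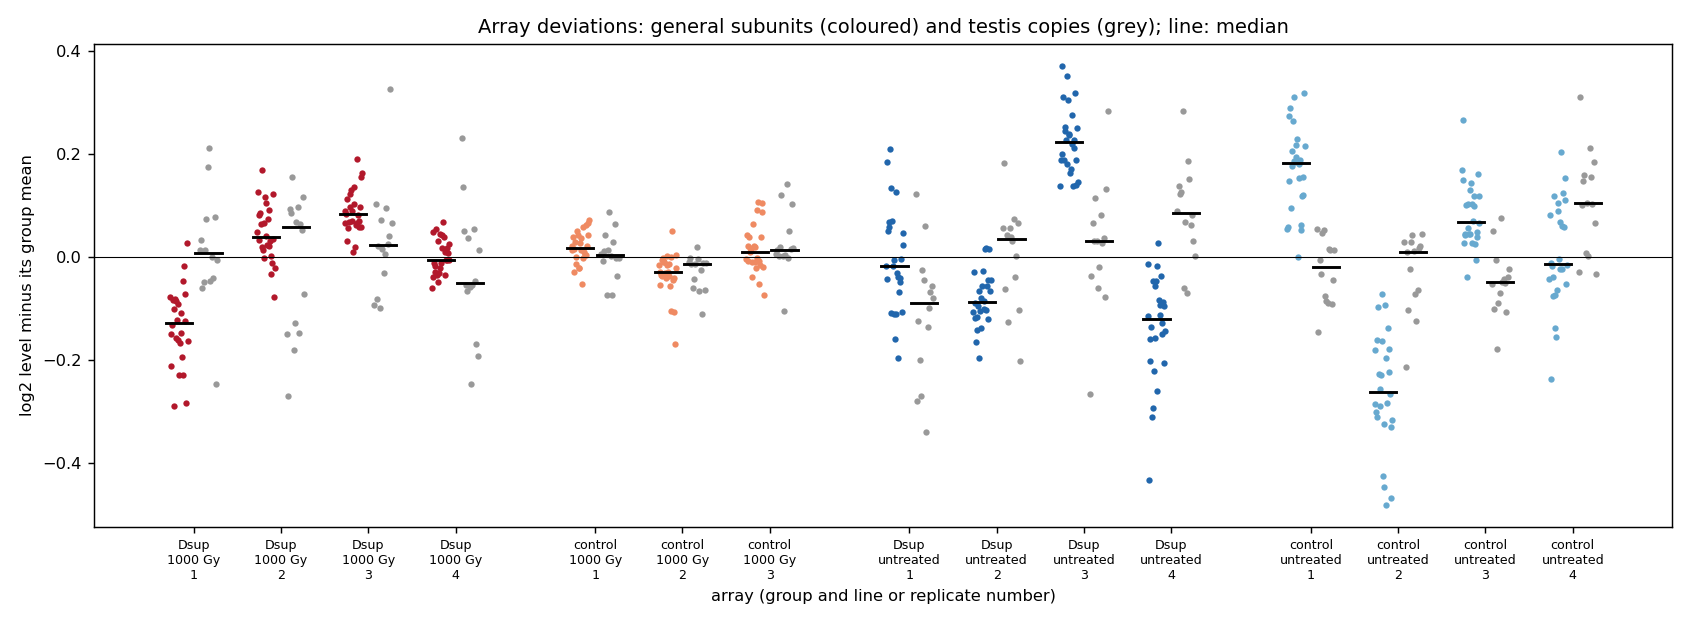
Log2 level of each gene minus its group mean, by array, for the 26 general subunits (coloured) and the 14 testis copies (grey), with the median as a line. The general subunits of untreated Dsup line 3 lie at a median of 0.22 and those of untreated control 2 at -0.26, while the testis copies of the same arrays lie at 0.03 and 0.01.

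These arrays bear on the counts. Without untreated control 2, the general subunits called higher in control flies numbered 2, Prosalpha5 at 0.51 (adjusted p = 0.00169) and Prosalpha7 at 0.32 (adjusted p = 0.0198), and the median change was 0.06. Without untreated control 4 the count was 4, and it was 2 without any 1 of the irradiated controls. In Dsup lines the count was 5 without untreated line 3, and Rpn6 was then not called (-0.21, adjusted p = 0.0531), nor was it without irradiated line 1 or 4. Rpn6 in control flies was called without each array in turn (-0.39 to -0.31).

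Other measures moved with radiation beside these genes. Of 13 measured accessory gland genes, which encode seminal fluid proteins, 10 rose in control flies (median 0.62), against 16.9% of all probe sets, and 3 in Dsup lines (median 0.30), against 10.7%. Their mean level was 9.73 to 9.91 in irradiated Dsup lines, 9.73 to 9.79 in irradiated controls, 9.23 to 9.81 in untreated Dsup lines and 8.73 to 9.37 in untreated controls. Untreated control 2, low in the general subunits, was at 9.34 in this list. Of 10 muscle genes, 0 rose in either genotype and 1, bt, fell in control flies, with ranges of mean level of 10.1 to 10.7 in irradiated Dsup lines, 10.3 in each irradiated control, 10.1 to 10.8 in untreated Dsup lines and 10.1 to 10.7 in untreated controls. The level difference between the 3' and 5' probe sets of the actin and GAPDH controls was 1.24 to 1.45 in irradiated Dsup lines, 1.33 to 1.53 in irradiated controls, 1.01 to 1.19 in untreated Dsup lines and 0.79 to 1.23 in untreated controls. With it as a covariate, 3 general subunits were called higher in Dsup lines and 2 in control flies. This level difference was higher in every irradiated array than in every untreated array of the same genotype. That fit therefore cannot tell it apart from radiation. The part of these measures in the result was not tested.

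The arrays were split into 2 sets by the level of the hybridization controls, bacterial transcripts added before hybridization. The cut was placed at the largest gap, 6.81 to 7.18, in levels running from 6.57 to 8.20. Each set held arrays of every group, and the Dsup arrays of the first set were both of line 1. Within the first set the median change of the general subunits was 0.02 in Dsup lines (1 array against 1) and 0.20 in control flies (2 against 2). Within the second it was 0.17 in Dsup lines (3 against 3) and 0.11 in control flies (1 against 2). Prosalpha5 changed by 0.22 and 0.46 in Dsup lines and by 0.56 and 0.58 in control flies within the sets, and Rpn6 by -0.25 and -0.28 in Dsup lines and by -0.27 and -0.44 in control flies. Prosalpha4 changed by 0.02 and 0.55 in Dsup lines, and by 0.58 and 0.54 in control flies.

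Of the 14 testis copies, 1 was called higher and 1 lower in Dsup lines, against 10.7% and 10.6% of all probe sets. In control flies 0 were called higher and 2 lower, against 16.9% and 17.1%. In Dsup lines Prosalpha4T1, a copy of Prosalpha4, rose by 0.38 ± 0.13 (adjusted p = 0.0433), with 5.34, 5.03, 5.41 and 5.44 in irradiated lines, against 4.64, 5.10, 4.88 and 5.06 in untreated lines. Line 2 was not above its untreated level, and the groups overlapped. Rpn12R, a copy of Rpn12, had 6.09, 6.19, 6.15 and 6.08 in irradiated lines, against 6.24, 6.34, 6.38 and 6.40 in untreated lines, without overlap. It fell by 0.21 (SE 0.07, adjusted p = 0.0392) after quantile normalization, was higher by 0.26 as deposited (adjusted p = 0.00414), and was not called median-centred. Prosalpha4T1 was not called with ribosomal centring (0.26, adjusted p = 0.134) or with each Dsup line as a block (adjusted p = 0.0524), nor was Rpn12R with that block (adjusted p = 0.0691).

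In control flies Rpn13R, a copy of Rpn13, had 5.46, 5.45 and 5.48 in irradiated controls, against 5.79, 5.90, 5.77 and 6.06 in untreated controls. As deposited, all irradiated controls held the same Rpn13R value, 5.91, so their spread here comes from the quantile step alone. The groups were apart and the change was -0.41 ± 0.09 (adjusted p = 0.00227), and -0.15 as deposited (adjusted p = 0.218). Prosalpha4T2, another copy of Prosalpha4, had 6.32, 6.30 and 6.31 in irradiated controls, against 6.55, 6.56, 6.45 and 6.65 in untreated controls, for a change of -0.24 ± 0.08 (adjusted p = 0.0281). As deposited its change was 0.06 and not called. The groups did not overlap for 5 of 14 copies downward, against 24.3% of all probe sets, and for 0 upward, against 23.6%. Only Rpt4R had a change above 0 (0.04) after quantile normalization, while as deposited 13 of 14 copies did. Of 32 measured testis marker genes, 3 rose and 4 fell in control flies (median 0.03), against 16.9% and 17.1% of all probe sets, and 3 rose and 1 fell in Dsup lines (median 0.08), against 10.7% and 10.6%. The mean level of these markers ran from 7.89 to 7.91 in irradiated controls and from 7.86 to 8.03 in untreated controls. Untreated control 4 was the highest of its group in 10 of the 14 copies, where it was the highest in 34.1% of all probe sets, and its copies lay at a median of 0.10 from the group means. It also had the highest marker mean of its group, 8.03, and a level of 7.48 in the 3' probe set of 18S ribosomal RNA, against 11.3 to 12.3 in the other 14 arrays. Without it 1 copy was called lower in control flies, as without untreated control 2 or any 1 of the irradiated controls. In whole flies, fewer cells of a type and less RNA per cell cannot be told apart.

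Dsup lines and controls were then compared with the same treatment. No general subunit was called, untreated or irradiated, by limma after quantile normalization, and 0 had an unadjusted p under 0.05 in either comparison. Over all probe sets, 5.42% were higher and 5.25% lower in untreated Dsup lines, and 5.97% higher and 6.06% lower in irradiated ones. The median difference of the general subunits was 0.07 untreated, with a range of -0.07 to 0.19, and 0.02 irradiated, with a range of -0.10 to 0.18. As arrays were left out, the medians ran from 0.00 to 0.12 untreated and from -0.01 to 0.08 irradiated. The irradiated median was -0.06 median-centred, with 7 of 26 above 0, and -0.12 with ribosomal centring, with 4 of 26 above 0. As deposited, 26 of 26 were lower in Dsup lines in both comparisons, where 88.9% of all probe sets were lower untreated and 60.3% irradiated.

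In untreated flies 4 of the 14 testis copies were lower in Dsup lines, against 5.25% of all probe sets, and 0 higher. Prosbeta5R2, a copy of Prosbeta5, had 5.07, 5.16, 5.23 and 5.35 in untreated Dsup lines, against 5.57, 5.43, 5.51 and 5.71 in untreated controls (-0.35 ± 0.08, adjusted p = 0.0165). Prosalpha4T2 had 6.11, 6.17, 6.30 and 6.36 in untreated Dsup lines, against 6.55, 6.56, 6.45 and 6.65 in untreated controls (-0.32 ± 0.07, adjusted p = 0.0153). All 4 lines lay below all 4 controls in 6 of the 14 copies, against 1264 of 18769 probe sets. The 6 were these genes, Rpn13R, Prosbeta4R2, Prosalpha3T and Prosbeta4R1. All 4 lines lay above all 4 controls in 0 copies, against 1287 probe sets. Rpn13R had 5.52, 5.66, 5.51 and 5.67 in untreated Dsup lines, against 5.79, 5.90, 5.77 and 6.06 in untreated controls (-0.29 ± 0.08, adjusted p = 0.0353). Prosbeta4R2, a copy of Prosbeta4, had 2.28, 2.25, 2.20 and 2.15 in untreated Dsup lines, against 2.44, 2.53, 2.60 and 2.52 in untreated controls (-0.30 ± 0.09, adjusted p = 0.0376). It was the single proteasome gene under the 40th percentile of mean level, and it was not called median-centred or with ribosomal centring.

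The median of the 14 copies was -0.17, against -0.01 over all probe sets, and 3 of 14 were above 0. The 4 genes had negative differences under each of the 4 scalings. As deposited, only 1.85% of all probe sets had a positive difference, so the negative sign there was shared by nearly all. None of the 4 genes was called when only the untreated arrays were fitted (adjusted p of 0.0797 to 0.130). The testis markers stood somewhat lower in the same arrays, with a median difference of -0.12 over 32 genes, of which 1, can, was called lower and 0 higher. Without untreated control 4, 2 copies were called lower, Prosalpha4T2 (adjusted p = 0.0387) and Prosbeta5R2 (adjusted p = 0.0424). The count was also 2 without untreated control 2, untreated Dsup line 1 or 3, or any 1 of the irradiated controls. The markers' mean level ran from 7.75 to 7.86 in untreated Dsup lines and from 7.86 to 8.03 in untreated controls. The part of the markers' difference in that of the copies was not tested. After radiation 0 testis copies were called between Dsup lines and controls, with 1 higher and 2 lower at an unadjusted p under 0.05, and a median of 0.02. All irradiated lines lay below all irradiated controls in 3 of the 14 copies, against 3336 of 18769 probe sets. They lay above in 1 copy, against 3473 probe sets. The 3 were Prosalpha4T2, Prosbeta4R2 and Prosbeta5R2.

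**Figure D3:**
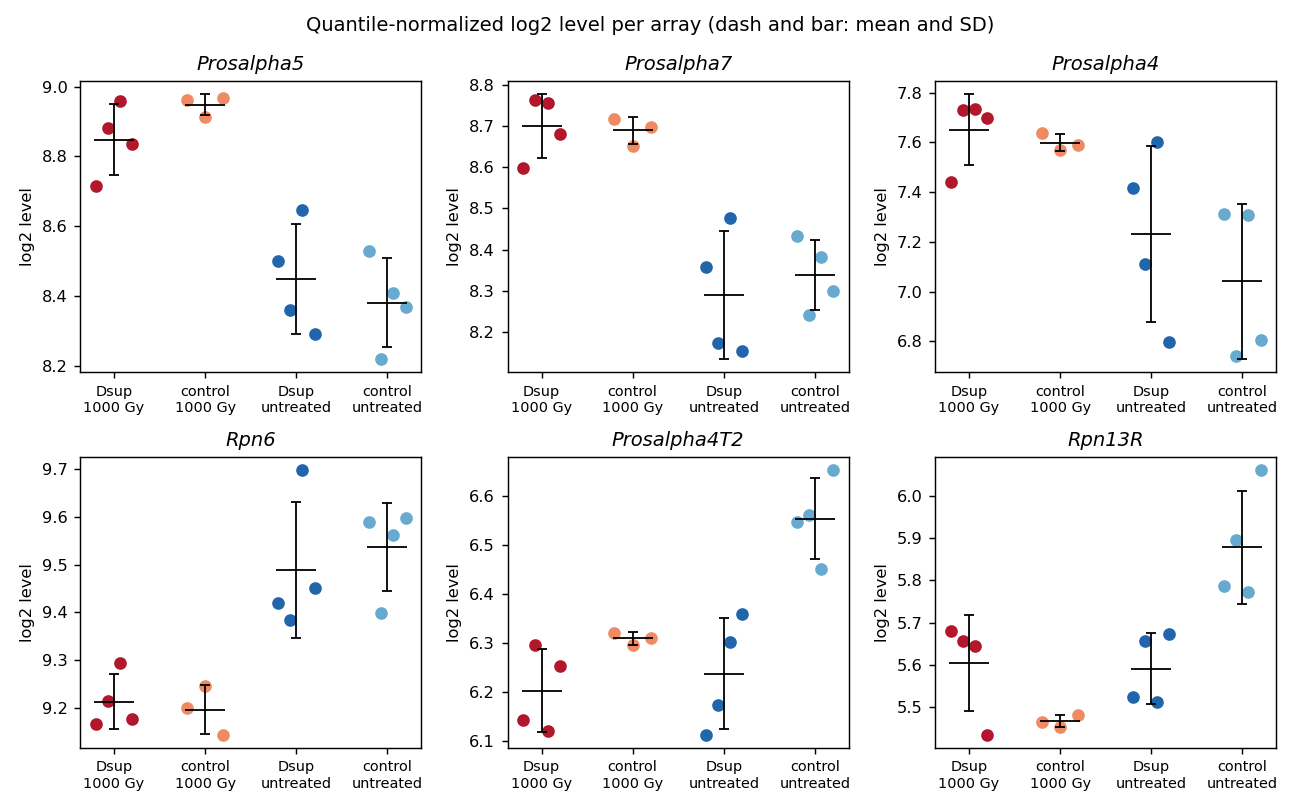
Quantile-normalized log2 level of 6 proteasome genes in each array, with group mean and SD, on an axis of its own for each gene. Prosalpha5 and Prosalpha7 lie above all untreated arrays of the same genotype after radiation, Rpn6 lies below them, and Rpn13R and Prosalpha4T2 are highest in untreated controls.

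The radiation response itself was compared between genotypes by the interaction, the change in Dsup lines minus that in control flies. No general subunit was called (0 at an unadjusted p under 0.05), with a median of -0.03, 11 of 26 above 0 and a range of -0.21 to 0.24. The median was -0.10 to 0.05 as arrays were left out. It was -0.13 median-centred and -0.16 with ribosomal centring, with 3 of 26 above 0 in each. For Prosalpha5 the interaction was -0.17 ± 0.13 and for Rpn6 0.07 ± 0.12. Of the testis copies, Rpn13R was called higher, at 0.43 ± 0.12 (adjusted p = 0.0382), against 4.31% of all probe sets called higher and 4.77% lower. Rpn13R had 5.68, 5.66, 5.64 and 5.43 in irradiated Dsup lines, for a change of 0.01 with radiation, against -0.41 in control flies. As deposited, all irradiated controls held the same Rpn13R value, 5.91. Untreated controls alone stood high. The call was absent median-centred (0.40, adjusted p = 0.0777), with ribosomal centring (0.36, adjusted p = 0.115), with the replicate block (0.37, adjusted p = 0.142) and when any of 10 of the 15 arrays was left out, while the value stayed between 0.37 and 0.48 as arrays were left out.

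Each testis copy was set beside its general subunit. After radiation the copy's change was below that of the general subunit in 13 of 14 pairs in Dsup lines and in 14 of 14 in control flies. In the comparison of Dsup lines with controls this held for 13 of 14 pairs untreated and for 8 of 14 irradiated. Some pairs in Dsup lines after radiation were nearly equal, as Prosbeta2R1 and Prosbeta2 (0.195 and 0.200) and Rpt4R and Rpt4 (0.141 and 0.147). Untreated control 2 was the lowest of its group in 25 of the 26 general subunits, and untreated control 4 the highest in 10 of the 14 copies. The part of these arrays in the counts was not tested. Several pairs share a general subunit, and the comparisons share arrays, so these counts are given as a description with no test. Prosalpha4 and its copies showed it in control flies: Prosalpha4 changed by 0.56, Prosalpha4T1 by -0.07 and Prosalpha4T2 by -0.24.

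**Figure D4:**
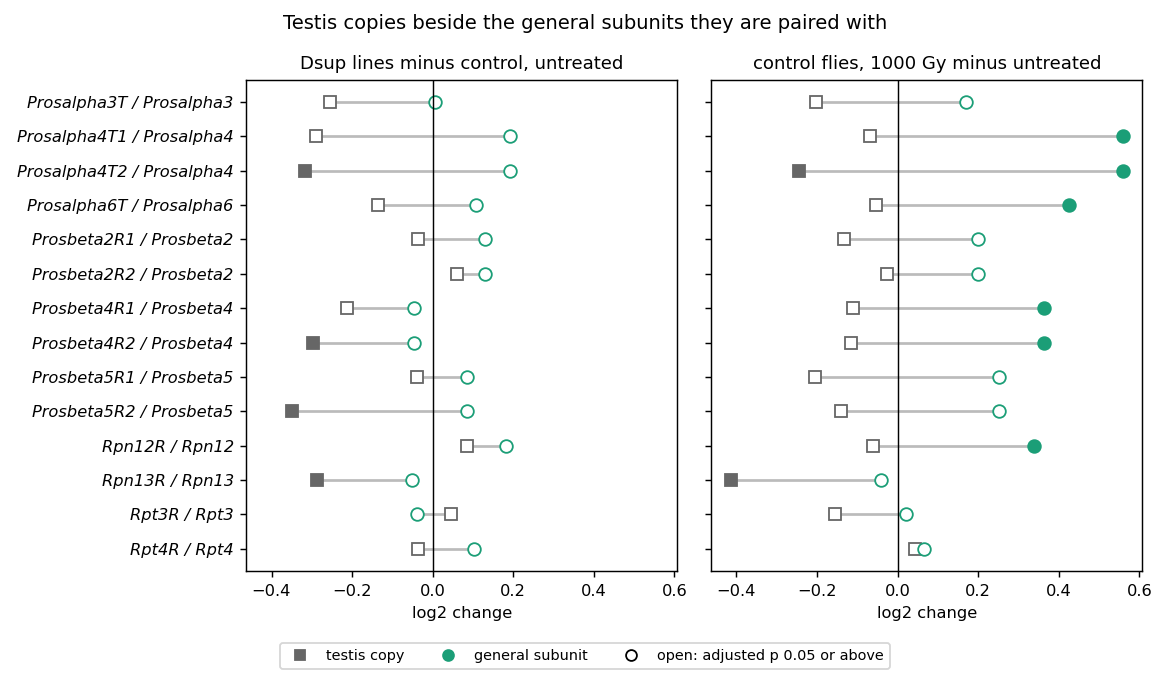
Log2 change of each testis copy (square) and of the general subunit it is paired with (circle), in untreated Dsup lines minus untreated controls and in control flies with 1000 Gy minus untreated, filled where the adjusted p is under 0.05. Squares lie left of circles in 13 of 14 pairs for Dsup lines and in 14 of 14 for radiation.

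Genes that assemble, feed or regulate the proteasome were counted by list. Of all probe sets, 10.7% were higher and 10.6% lower after radiation in Dsup lines, 16.9% and 17.1% in control flies, and 5.97% and 6.06% in irradiated Dsup lines relative to irradiated controls. Of 9 measured assembly factors and regulators, 2 rose and 2 fell in control flies after radiation, and 0 rose and 1 fell in Dsup lines. Pomp, the chaperone that matures the core, rose by 0.69 ± 0.18 in control flies (adjusted p = 0.00722) and was called higher there under all 4 scalings. The transcription factor gene cnc fell by 0.38 in Dsup lines (adjusted p = 0.00336) and by 0.37 in control flies (adjusted p = 0.00334), and its partner maf-S fell by 0.38 in control flies (adjusted p = 0.0236). As deposited these values were 0.15 and -0.01 for cnc and 0.02 for maf-S, none of them called. Median-centred, neither gene was called in control flies (adjusted p = 0.0854 for cnc and 0.337 for maf-S). Between genotypes cnc was higher in Dsup lines by 0.29 untreated (adjusted p = 0.0279) and by 0.28 irradiated (adjusted p = 0.0406), but lower as deposited, by 0.39 and 0.23. The untreated call was lost with ribosomal centring (adjusted p = 0.0803), and the irradiated call median-centred (adjusted p = 0.0829) and with ribosomal centring (adjusted p = 0.302). REG, an activator that caps the core, was lower in irradiated Dsup lines than in irradiated controls by 0.31 (adjusted p = 0.0150).

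Of 7 measured genes for ubiquitin, related modifiers and their activating enzymes, 1 rose in Dsup lines and 3 in control flies, and 0 fell. The polyubiquitin gene Ubi-p63E rose by 0.40 in Dsup lines (adjusted p = 0.00124) and by 0.57 in control flies (adjusted p = 5.87e-05). Ubi-p5E, also a polyubiquitin gene, rose by 0.57 (adjusted p = 0.00376) and Uba2, of the SUMO-activating enzyme, by 0.47 in control flies. Ubi-p5E was lower by 0.53 and Ubi-p63E by 0.31 in irradiated Dsup lines than in irradiated controls. The directions of Ubi-p63E, Ubi-p5E and Uba2 held under all 4 scalings. RpS27A, which encodes ubiquitin fused to a ribosomal protein, was higher by 0.20 in irradiated Dsup lines (adjusted p = 0.0442), but lower by 0.20 as deposited (adjusted p = 0.0216) and not called with ribosomal centring (adjusted p = 0.0730).

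Among 3 measured shuttle and autophagy receptors, ref(2)P, which binds ubiquitinated proteins for autophagy, rose by 0.67 ± 0.13 in Dsup lines (adjusted p = 0.00282) and by 1.26 ± 0.14 in control flies (adjusted p = 1.92e-05). It was lower by 0.71 in irradiated Dsup lines than in irradiated controls (adjusted p = 0.00547). Of 6 measured ubiquitin-conjugating enzymes, Ubc2 rose in control flies (0.51), was lower in irradiated Dsup lines than in irradiated controls (-0.46), and was called in the interaction (-0.53, adjusted p = 0.0214), though not as deposited (-0.38, adjusted p = 0.0831). Ubc7 fell in Dsup lines (-0.27) but was higher as deposited (0.27). Of 5 measured genes of the TER94 segregase and its cofactors, Faf2 fell by 0.31 in Dsup lines and by 0.61 in control flies. As deposited Faf2 was higher by 0.21 in Dsup lines and lower by 0.24 in control flies.

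Of 7 measured chaperone genes of protein quality control, 2 rose in Dsup lines and 6 in control flies, with medians of 0.22 and 0.79. The small heat shock protein gene Hsp26 rose by 2.15 ± 0.30 in control flies (adjusted p = 8.78e-05), and its interaction was -1.70 ± 0.41 (adjusted p = 0.0177). The co-chaperone gene stv rose by 0.84 ± 0.17 in Dsup lines and by 1.40 ± 0.19 in control flies. These calls held under all 4 scalings. Of 41 cytosolic ribosomal protein genes, 2 rose and 2 fell in Dsup lines (median 0.05), and 0 rose and 6 fell in control flies (median -0.05).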

How the data were processed

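The authors deposited log2 probe set levels for 18952 probe sets on 15 arrays (GeneChip 3' IVT PLUS labelling of 250 ng total RNA, per the labels' protocols). The sources used here do not say how probes were summarized and normalized. No array-level intensities were used, so signal over background could not be judged, and the number of arrays limits the precision. Without the 183 control probe sets, 18769 were tested, of which 13647 carried 1 symbol.

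Values were quantile-normalized over all arrays and fitted with limma 3.58.1 (R 4.3.3): a mean for each of 4 groups, plain empirical Bayes, 5 contrasts, two-sided, Benjamini-Hochberg adjustment over 18769 probe sets. The fit was tested on simulated data. Where a gene had several probe sets, the one of highest mean was used. Values are given for each array for up to 8 general subunits and 4 testis copies called in a comparison, by largest change. From each pathway list, up to 3 called genes are named per comparison. The proteasome genes, the lists and the tests were chosen with earlier results of these data known. The pairing of Rpn13R with Rpn13 was added after the values were seen.

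Alternatives were the deposited values, centring on the array median or the ribosomal protein genes, removal of probe sets under the 40th percentile of mean level, trended robust moderation, the 3' minus 5' level as a covariate, a replicate block, and leaving out each array. Others, added after seeing the data, were a term for the hybridization control set, values within each set, and fits of the groups compared alone. By label, Dsup arrays of the same number come from the same transgenic line. The deviations of same-numbered arrays correlated at -0.01, 0.11, -0.10 and -0.18 over the Dsup lines, and at -0.14, 0.25 and -0.16 over the controls, whose numbers are not tied to a stock by the labels. P-values measure the spread between these arrays. No coordinates are given because the probe annotation names no genome build.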

Additional observations from a re-analysis of the deposited data

Results flagged for a closer look

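In groups of 4 arrays, 9 of 120 combinations of a proteasome gene and a group had a lone array beyond Dixon's 95% critical value, where chance gives about 1 in 20. The general subunits of an array moved together, so these combinations are not independent and the count is a description only. Untreated control 2 was low in the base genes Rpn1 (7.05, next array 7.58) and Rpt3 (7.33, next 7.95) and in the lid gene Rpn3 (7.25, next 7.83). Untreated Dsup line 3 was high in Prosbeta3 (9.59, next 9.29) and low in Prosalpha3T (4.94, next 5.26). Irradiated Dsup line 1 was low in Prosalpha4 (7.44, next 7.70), line 2 in Prosbeta2R2 (6.31, next 6.53) and line 4 in Rpn13R (5.43, next 5.64). Untreated control 4 was high in Prosbeta5R1 (7.41, next 7.15).

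The radiation change of Rpn13R differed between the genotypes by 0.43 in the interaction. Untreated controls were the high group, and the value lay between 0.36 and 0.62 under the 4 scalings.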

How the results depend on the processing

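After radiation, Prosalpha5 in both genotypes and Prosalpha7 in Dsup lines were called under every alternative run, each left-out array included. Prosalpha7 in control flies was lost with the 3' minus 5' covariate alone (adjusted p = 0.117), and Rpn13R in control flies with the deposited values alone (adjusted p = 0.218). That covariate was higher in all irradiated arrays than in untreated ones of the same genotype and cannot be told apart from radiation. Counts of general subunits called higher, 2 in Dsup lines and 7 in control flies, were 26 and 23 as deposited and 8 and 18 median-centred, while control flies gave 13 with ribosomal centring, 2 with the 3' minus 5' covariate and 3 with the replicate block. The general subunit called lower, Rpn6, was called 0 times as deposited, median-centred and with that covariate in both genotypes, with ribosomal centring in control flies, and with the compared groups alone in Dsup lines. Reversed as deposited were Rpn6 (0.31 in Dsup lines, 0.17 in control flies), Rpn12R in Dsup lines (0.26) and Prosalpha4T2 in control flies (0.063), where the median of all probe sets moved up.

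Testis copies called higher in Dsup lines were 14 as deposited and 0 with ribosomal centring, low probe sets removed, the covariate, the replicate block and the compared groups alone; those called lower were 0 as deposited, median-centred, with trended robust moderation, the covariate, the replicate block and the compared groups alone, and 2 with ribosomal centring. In control flies 4 copies were higher as deposited, and 0 were lower as deposited, 3 with ribosomal centring and with the compared groups alone, and 1 median-centred, with the covariate and with the replicate block. Dsup lines against controls gave 26 general subunits lower as deposited in both comparisons; testis copies lower were 14 untreated and 12 irradiated as deposited, 2 untreated with low probe sets removed, 0 untreated with the compared groups alone and 1 irradiated with ribosomal centring. With the compared groups alone, 1 irradiated copy was higher. The interaction gave 5 testis copies higher as deposited, against 3863 of 18769 probe sets. It gave 0 median-centred, with ribosomal centring, with low probe sets removed and with the replicate block. Of all probe sets as deposited, 76% were higher after radiation in Dsup lines and 41.9% in control flies. Between Dsup lines and controls, 88.9% were lower untreated and 60.3% irradiated. The causes were not tested.

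Leaving out an array gave 2 to 8 general subunits higher and 1 to 2 testis copies lower in control flies. In Dsup lines it gave 2 to 5 general subunits higher, 0 to 1 lower, and 0 to 1 testis copies higher and lower. It gave 2 to 4 testis copies lower in untreated and 0 to 1 in irradiated Dsup lines, and 0 to 1 higher in the interaction. Leaving out an irradiated control leaves 2 arrays in that group. Averaging the probe sets of a gene changed nothing, since each gene has 1. Control numbers are shared by name only, so a call lost under their block is not read as a weaker change.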
